A study of Mus musculus with 2 samples.

Results

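Translation factors are the proteins that start and extend a polypeptide chain on the ribosome. The genes described here are the nuclear protein-coding genes of the mouse whose symbol starts with Eif (initiation factors) or Eef (elongation factors), without Eif2s3y. The rule that chose them uses the symbol alone and no measured value, but earlier results of these data were known when it was set. There were 67 of them among 21461 nuclear protein-coding genes. Their mRNA was measured by RNA-seq of poly(A) RNA from the heart of 1 adult female C57BL/6J mouse aged 10 weeks, with RNA purified by a kit made for fatty tissue. The heart was sequenced in 2 libraries, which the labels call technical replicates 2 and 1 of biological replicate 1. Replicate 2 was added after replicate 1 had been published, and the animal had no stated treatment or altered allele. There is no second animal or condition, so no p-value is given and no value extends to other mice. The source of a difference between the libraries was not tested.

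During initiation, eIF2 carries the initiator tRNA to the small ribosomal subunit, where eIF1, eIF1A, eIF3 and eIF5 assemble with it. The cap-binding protein eIF4E, the helicase eIF4A and the scaffold eIF4G bring that complex to the 5′ end of an mRNA. During elongation, eEF1A delivers each aminoacyl-tRNA, the eEF1B complex recharges eEF1A with GTP, and eEF2 moves the ribosome along by one codon. eEF1A has 2 closely related forms: eEF1A1 is made in most tissues, and eEF1A2 is known as the form of adult heart, skeletal muscle and neurons.

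The genes of these 2 forms show how near the pair is at the level of the mRNA and where it differs. The first 150 coding bases of each are printed 5′ to 3′ from the mouse genome (GRCm38, which is mm10), with capitals at the bases where the pair differs. Eef1a2, transcript Eef1a2-201, lies on the minus strand with these bases in 2 exons within chr2:181153825-181155406, and Eef1a1, transcript Eef1a1-201, on the minus strand in 2 exons within chr9:78480415-78480654.
Eef1a2: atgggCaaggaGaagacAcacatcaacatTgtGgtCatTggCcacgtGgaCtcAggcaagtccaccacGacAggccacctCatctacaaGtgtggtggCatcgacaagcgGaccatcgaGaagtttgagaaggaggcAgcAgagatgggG
Eef1a1: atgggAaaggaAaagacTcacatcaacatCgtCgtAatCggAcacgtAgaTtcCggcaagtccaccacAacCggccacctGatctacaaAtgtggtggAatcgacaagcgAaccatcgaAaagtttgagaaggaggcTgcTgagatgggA
All 21 differing bases fell at the last position of a codon, and this stretch held 54.7% G and C in Eef1a2 and 49.3% in Eef1a1. Over the whole coding sequence, 1119 of 1387 aligned bases were identical (80.7%). The share of G or C at the last position of a codon was 72.6% in Eef1a2 and 51.8% in Eef1a1.

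A second pair, the helicases eIF4A1 and eIF4A2, is shown because the lead of Eif4a2 also differed between the libraries. The bases printed are coding bases 37 to 186 of Eif4a1-213 (minus strand, chr11:69670634-69670963) and 43 to 192 of Eif4a2-203 (plus strand, chr16:23108598-23108832), each in 2 exons of GRCm38, with capitals again at the differing bases.
Eif4a1: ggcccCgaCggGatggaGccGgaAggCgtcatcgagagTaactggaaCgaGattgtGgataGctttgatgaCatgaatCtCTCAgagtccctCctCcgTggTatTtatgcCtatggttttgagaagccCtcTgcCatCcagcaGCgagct
Eif4a2: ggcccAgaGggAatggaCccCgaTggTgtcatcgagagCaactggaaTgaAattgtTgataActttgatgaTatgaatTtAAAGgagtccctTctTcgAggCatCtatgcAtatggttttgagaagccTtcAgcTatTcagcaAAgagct
Of the 30 differing bases, 25 were at the last position of a codon, and the stretch held 54.0% G and C in Eif4a1 and 44.0% in Eif4a2.

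The 2 libraries differed strongly as a whole, and every value below has to be read with that. Replicate 2 held 19685806 counts and replicate 1 held 22775979. Mitochondrial mRNA and rRNA genes and their nuclear copies took 60.9% of the summed TPM in replicate 2 and 92.8% in replicate 1. TPM is an abundance corrected for transcript length that has the same sum in each library. Nuclear genes held 12654724 counts in replicate 2 and 5028154 in replicate 1. Levels are therefore given as nuclear TPM, which is TPM scaled again to its full sum without the mitochondrial genes and copies, by a factor of 2.56 in replicate 2 and 13.9 in replicate 1. The count-weighted GC content was 50.5% in replicate 2 and 45.1% in replicate 1. Cardiomyocyte markers were abundant: all 6 reached 1 TPM in each library, and they summed to 73680 nuclear TPM in replicate 2 and 14140 in replicate 1. Of these, only Ttn was lower in replicate 2 (172.5, against 292.6 in replicate 1). The globin genes, which mark red cells, had 12820 nuclear TPM in sum in replicate 2 and 996 in replicate 1. Macrophage markers summed to 107 in replicate 2 and 15.9 in replicate 1, with only Adgre1 lower in replicate 2 (6.65, against 9.70). Endothelial markers summed to 350 nuclear TPM in replicate 2 and 196 in replicate 1, with only Kdr lower in replicate 2 (82.6, against 104.9). The fibroblast sum ran the other way, with 838 nuclear TPM in replicate 2 and 2027 in replicate 1. Most of it came from Dcn, with 773 in replicate 2 and 1979 in replicate 1. Pdgfra was also lower in replicate 2, while Col1a1 and Tcf21 were higher there. The smooth muscle and pericyte sum was 695 in replicate 2 and 1441 in replicate 1. Only Rgs5 was lower in replicate 2 (322, against 1393 in replicate 1), while Acta2, Myh11 and Pdgfrb were higher there. The skeletal muscle list summed to 203 nuclear TPM in replicate 2 and 3.74 in replicate 1, nearly all of it from Acta1 (193 in replicate 2 and 2.36 in replicate 1), while its myosin genes Myh1 and Myh4 were at 0 in both libraries. The part of these cell types in the ratios below was not tested. The neuron list summed to 1.89 nuclear TPM in replicate 2 and 2.36 in replicate 1. In tissue RNA, fewer cells of a type and less RNA per cell cannot be told apart.

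Most translation factor genes were detected in this heart. In replicate 2, 64 of the 67 genes (95.5%) had at least 1 TPM, against 51.8% of all nuclear protein-coding genes. In replicate 1, 48 of 67 (71.6%) did, against 28.0%, and the same 48 genes reached 1 TPM in both libraries, against 27.9%. This limit is stricter in replicate 1, where 1 TPM equals 13.9 nuclear TPM, than in replicate 2, where it equals 2.56. At a limit of 1 nuclear TPM, 64 of the 67 genes reached it in both libraries. The share of all genes at that limit was not taken. The genes took 161622 counts in replicate 2, which is 1.28% of the nuclear counts, and 65193 in replicate 1, which is 1.30%. Their summed level was 11255 nuclear TPM in replicate 2 and 16190 in replicate 1. A nearly equal share of the nuclear counts thus went to these genes in the 2 libraries, while the genes that carried it differed.

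Initiation factor genes summed to more than elongation factor genes in both libraries, by little in replicate 2 and by far in replicate 1. The 8 genes of eEF1A, eEF1B, eEF2 and eIF5A summed to 5021 nuclear TPM in replicate 2 (44.6% of the level of all 67 genes) and 1372 in replicate 1 (8.48%). The 34 genes of eIF1, eIF1A, the eIF2 subunits, eIF3, eIF4A, eIF4B, eIF4H, the 3 eIF4E forms with counts, eIF4G, eIF5 and eIF5B summed to 5543 nuclear TPM in replicate 2 (49.2%) and 14143 in replicate 1 (87.4%). The share of the eIF3 genes was similar in both, with 14.3% in replicate 2 and 13.0% in replicate 1.

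**Figure D1:**
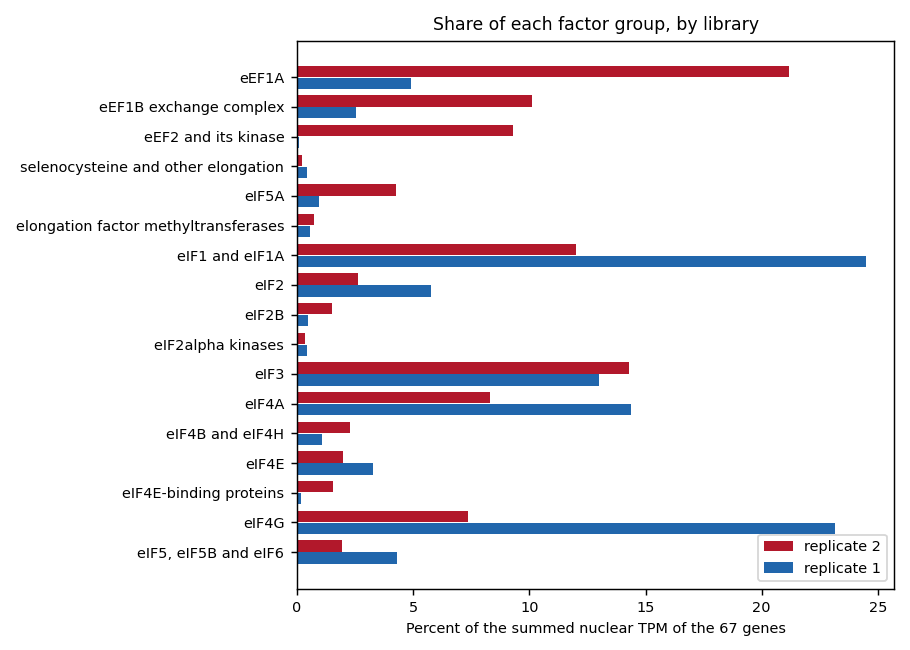
Share of each of 17 groups of translation factor genes in their summed nuclear TPM (horizontal axis, percent), with replicate 2 above replicate 1 for each group. eEF1A took 21.2% in replicate 2 and 4.90% in replicate 1, while eIF1 and eIF1A together took 12.0% in replicate 2 and 24.5% in replicate 1.

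Single genes were compared between the libraries by the ratio of counts scaled with the trimmed mean of M-values (TMM), replicate 2 over replicate 1, with 0.5 counts added. A gene counts as higher or lower in replicate 2 when this ratio was at least 2-fold, among genes with at least 20 counts over both libraries. Of 65 translation factor genes with enough counts, 27 (41.5%) were higher in replicate 2, against 39.8% of the 12464 nuclear protein-coding genes with enough counts. A further 19 (29.2%) were lower, against 26.5%. Both shares lay near those of all genes, so these counts say nothing particular about translation factors. The median log2 ratio was 0.79 over the 65 genes and 0.26 over all genes, and single values ran between -2.83 and 6.60.

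**Figure D2:**
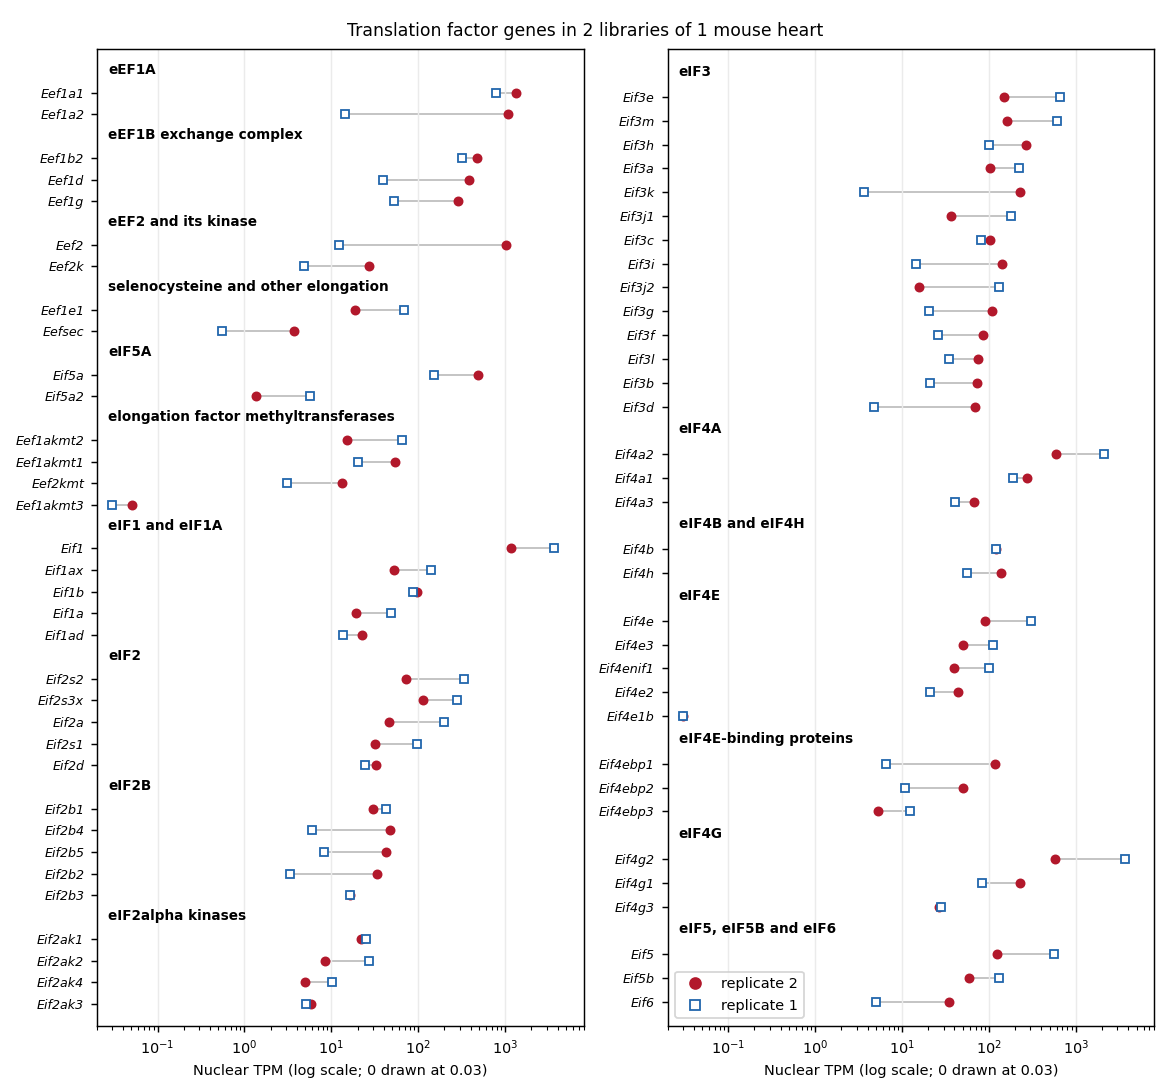
Level of each translation factor gene (horizontal axis, nuclear TPM, log scale, with 0 drawn at 0.03) in replicate 2 (filled circles) and replicate 1 (open squares), by group of genes. Eef2 stood at 1017 nuclear TPM in replicate 2 and 12.2 in replicate 1, whereas Eif4g2 stood at 574 in replicate 2 and 3638 in replicate 1. The length used to correct Eif4g2 was 4369 bases in replicate 2 and 2075 in replicate 1.

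The pair of eEF1A genes was nearly balanced in replicate 2 and far apart in replicate 1. Eef1a2 had 417 TPM in replicate 2 (15272 counts) and 1.04 TPM in replicate 1 (64 counts). Eef1a1 had 516 TPM in replicate 2 (14305 counts) and 56.2 TPM in replicate 1 (2926 counts). By level, Eef1a2 ranked 130th among nuclear protein-coding genes in replicate 2 and 5909th in replicate 1, and Eef1a1 ranked 94th in replicate 2 and 167th in replicate 1. Eef1a1 was thus a highly ranked gene in both libraries, and Eef1a2 in replicate 2.

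Per transcript length, Eef1a2 was at 0.808 times the count of Eef1a1 in replicate 2 (95% exact binomial interval 0.790 to 0.827) and at 0.0185 times in replicate 1 (0.0142 to 0.0237). These intervals cover counting error only, because reads without molecular identifiers are not independent molecules. On TPM with 0.1 added, the log2 ratio of Eef1a2 over Eef1a1 was -0.31 in replicate 2 and -5.63 in replicate 1, with a mean of -2.97 ± 3.76 (SD, n = 2 libraries). Eef1a1 was the higher of the pair in both libraries, and the size of its lead, 1.24-fold in replicate 2 and 49.4-fold in replicate 1, was not settled by them. The transcripts of Eef1a2 held 60.6% G and C, the highest value of the 67 genes, and those of Eef1a1 47.5%. When replicate 1 was adjusted to the GC profile of replicate 2 over all genes, its log2 ratio became -0.43, a lead of 1.34-fold for Eef1a1. The profile was taken from the ratio of these same libraries, so genes on its trend move to their replicate 2 ratio by construction. The part that GC content had in the unadjusted difference was not tested.

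The exchange factor eEF1B was led by its catalytic alpha subunit, Eef1b2, with 472 nuclear TPM in replicate 2 and 318 in replicate 1. The gene of the other catalytic subunit, Eef1d, had 379 nuclear TPM in replicate 2 and 39.8 in replicate 1. Eef1g, for the structural gamma subunit, had 287 nuclear TPM in replicate 2 and 52.9 in replicate 1. The order Eef1b2, Eef1d, Eef1g held in replicate 2, and Eef1d and Eef1g changed places in replicate 1, where they rested on 76 and 167 counts. Eef1d and Eef1g were higher in replicate 2 (log2 ratios 3.10 and 2.94), and Eef1b2 had a ratio of 0.82. Eef1b2 shares exon bases with Ndufs1 on the opposite strand, which had 13504 counts in replicate 2 and 7457 in replicate 1. No source used here states how the counting treated strand, and reads from such overlaps cannot be told apart.

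Eef2, the gene of the translocase, had the largest ratio of the 65 genes. It had 22383 counts in replicate 2, more than any other translation factor gene there, and 83 in replicate 1, a log2 ratio of 6.60. Eef2k, for the calcium-dependent kinase that inhibits eEF2, had 27.4 nuclear TPM in replicate 2 and 4.85 in replicate 1 (log2 ratio 1.74). Eef2 stood above its kinase in both libraries, with ratios on TPM plus 0.1 of 36.8 in replicate 2 and 2.18 in replicate 1.

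Eif5a, for the hypusine-carrying factor that helps ribosomes past proline-rich stretches, had 480.5 nuclear TPM in replicate 2 and 150 in replicate 1. Its second gene, Eif5a2, had 1.36 nuclear TPM in replicate 2 and 5.68 in replicate 1. Eif5a was therefore the main form in both libraries, and the genes differed in opposite directions, with log2 ratios of 1.79 and -1.82. Eef1e1, which encodes a small partner of the tRNA synthetase complex, had 18.8 nuclear TPM in replicate 2 and 68.7 in replicate 1. Eefsec, the elongation factor for selenocysteine, had 71 counts in replicate 2 and 3 in replicate 1.

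The 4 lysine methyltransferase genes of the elongation factors summed to 82.6 nuclear TPM in replicate 2 and 88.5 in replicate 1. Eef1akmt2 had 15.2 nuclear TPM in replicate 2 and 65.1 in replicate 1 and was among the 5 genes lowest in replicate 2 relative to replicate 1 (log2 ratio -2.09). Eef1akmt1 had 53.9 nuclear TPM in replicate 2 and 20.4 in replicate 1, and Eef2kmt had 13.4 in replicate 2 and 3.05 in replicate 1. Eef1akmt3 had 1 count in replicate 2 and 0 in replicate 1; the upper limit for a gene at 0 is 3 counts, or 1.32e-05% of replicate 1.

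Among the factors that open the scanning complex, Eif1, which guards start codon choice, dominated. Eif1 had 1163 nuclear TPM in replicate 2 (8768 counts) and 3675 in replicate 1 (3314 counts). It was the highest of the 67 genes in replicate 1 and the second in replicate 2, yet its TMM-scaled count ratio was near even (log2 ratio -0.07). Its leading transcript was shorter in replicate 1, where the gene's effective length was 385 bases, against 997 in replicate 2. Eif1b, its close relative, had 96.0 nuclear TPM in replicate 2 and 86.0 in replicate 1. Eif1ax, on the X chromosome and coding for eIF1A, had 51.9 nuclear TPM in replicate 2 and 141 in replicate 1, and Eif1a, its relative, had 19.4 in replicate 2 and 48.8 in replicate 1. Eif1ax was higher than Eif1a by nearly the same fold in both libraries, 2.66 in replicate 2 and 2.84 in replicate 1. Eif1ad, whose protein shares the eIF1A domain, had 22.5 nuclear TPM in replicate 2 and 13.4 in replicate 1. The lowest gene of the group was Eif1a in replicate 2 and Eif1ad in replicate 1.

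Of the 5 genes grouped with the initiator tRNA carrier eIF2, 4 were lower in replicate 2 past 2-fold, against 26.5% of all genes. Their median log2 ratio was -1.39, and 0.17 with the trend over GC content removed as described below; their median GC content was 41.8%. The beta subunit gene Eif2s2 had 72.5 nuclear TPM in replicate 2 and 337 in replicate 1. The gamma subunit gene Eif2s3x had 114 nuclear TPM in replicate 2 and 278 in replicate 1, and the alpha subunit gene Eif2s1 had 31.4 in replicate 2 and 95.9 in replicate 1. The order of these subunits was not the same: Eif2s3x was the highest in replicate 2 and Eif2s2 in replicate 1, while Eif2s1 was the lowest in both. Eif2a and Eif2d encode separate proteins that can place tRNA without eIF2. Eif2a had 45.5 nuclear TPM in replicate 2 and 198 in replicate 1, and Eif2d had 32.8 in replicate 2 and 24.2 in replicate 1. Eif2d was the member of this group that was not lower in replicate 2 (log2 ratio 0.79).

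Of the 5 subunit genes of the exchange factor eIF2B, which reloads eIF2 with GTP, 3 were higher in replicate 2 and 0 were lower, against 39.8% and 26.5% of all genes. Their median GC content was 53.2%, and a difference from the eIF2 genes was not tested. The catalytic epsilon subunit gene Eif2b5 had 42.2 nuclear TPM in replicate 2 and 8.31 in replicate 1. Eif2b4, for the delta subunit, had 47.8 nuclear TPM in replicate 2 (596 counts) and 5.96 in replicate 1 (9 counts). Eif2b1, for the alpha subunit, had 30.0 nuclear TPM in replicate 2 and 42.0 in replicate 1. The 5 subunit genes lay within 2.91-fold of each other in replicate 2 and 12.6-fold in replicate 1. Eif2b2, for the beta subunit, had 33.3 nuclear TPM in replicate 2 and 3.32 in replicate 1. Eif2b3, for the gamma subunit, was the lowest in replicate 2, with 16.4 nuclear TPM, and had 16.2 in replicate 1.

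The kinases that phosphorylate the alpha subunit of eIF2 under stress were all low, with 40.9 nuclear TPM in sum in replicate 2 and 67.1 in replicate 1. Eif2ak1, the kinase sensitive to heme, had 21.8 nuclear TPM in replicate 2 and 24.8 in replicate 1. Eif2ak2, the kinase activated by double-stranded RNA, had 8.34 nuclear TPM in replicate 2 and 26.9 in replicate 1, and was the kinase gene lower in replicate 2 past 2-fold. Eif2ak4, the sensor of amino acid shortage, had 4.94 nuclear TPM in replicate 2 and 10.3 in replicate 1, and Eif2ak3, the sensor of the endoplasmic reticulum, had 5.78 in replicate 2 and 5.13 in replicate 1. By level, Eif2ak1 stood above Eif2ak2 in replicate 2 and slightly below it in replicate 1. Eif2ak3 stood above Eif2ak4 in replicate 2 and below it in replicate 1. The exact binomial interval of Eif2ak1 over Eif2ak2 included an even ratio in replicate 1 (0.769 to 1.11). That of Eif2ak3 over Eif2ak4 did so in replicate 2 (0.947 to 1.45). A change of order between the libraries was therefore not settled for either pair.

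The subunits of eIF3 assemble into one complex, and their mRNA levels were much closer together in replicate 2. The 12 genes of the core subunits spanned 3.87-fold in replicate 2 and 183-fold in replicate 1, and their coefficient of variation was 48.3% in replicate 2 and 156% in replicate 1. Eif3e had 151 nuclear TPM in replicate 2 and 657 in replicate 1, and Eif3m had 159 in replicate 2 and 606 in replicate 1. Eif3h had 264 nuclear TPM in replicate 2, the highest there, and 101 in replicate 1. Eif3k had 229 nuclear TPM in replicate 2, from 1010 counts, and 3.60 in replicate 1, from 5 counts. Eif3d, for the subunit with a cap-binding pocket, was the lowest core gene in replicate 2, with 68.2 nuclear TPM, and had 4.71 in replicate 1. The other 7 core genes lay between 73.0 and 140 nuclear TPM in replicate 2 and between 14.3 and 224 in replicate 1. Of all 14 eIF3 genes, 8 were higher in replicate 2 and 4 were lower, against 39.8% and 26.5% of all genes.

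Eif3j1 and Eif3j2, for the loosely bound j subunit, were among the 5 genes lowest in replicate 2 relative to replicate 1, together with Eif3e and Eif5. Eif3j1 had 36.6 nuclear TPM in replicate 2 and 180 in replicate 1, and Eif3j2 had 15.6 in replicate 2 and 130 in replicate 1. Their coding sequences were identical over 786 aligned bases, so reads could have been split between them and the value of each is uncertain. Eif3j1 also overlaps Spg11 on the opposite strand.

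**Figure D3:**
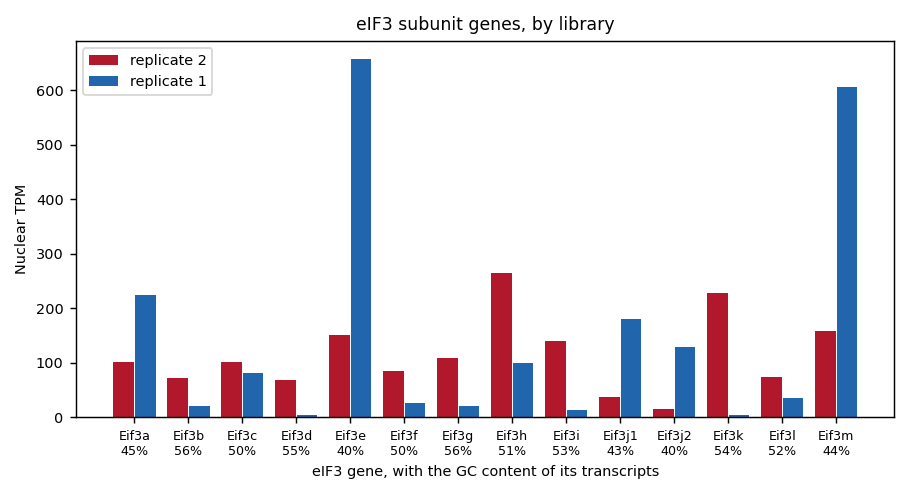
Nuclear TPM (vertical axis) of the 14 eIF3 genes in replicate 2 (left bar) and replicate 1 (right bar), with the GC content of each gene's transcripts under its name. Eif3e and Eif3m stand out in replicate 1, with 657 and 606 nuclear TPM, and Eif3k and Eif3d are near the axis there, with 3.60 and 4.71.

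Of the helicase genes, Eif4a2 was higher than Eif4a1 in both libraries. Eif4a2 had 593 nuclear TPM in replicate 2 and 2096 in replicate 1, and Eif4a1 had 273 in replicate 2 and 191 in replicate 1. The lead of Eif4a2 was 2.17-fold in replicate 2 and 10.9-fold in replicate 1 on TPM with 0.1 added. As the printed stretches show, the pair differs mostly at the last position of codons, and its transcripts held 48.3% G and C in Eif4a1 and 41.9% in Eif4a2. Eif4a3, the helicase of the exon junction complex, was the lowest, with 67.7 nuclear TPM in replicate 2 and 40.3 in replicate 1. The partners of the helicase, Eif4b and Eif4h, were at 121 and 138 nuclear TPM in replicate 2 and at 122 and 55.7 in replicate 1. Eif4b was near even between the libraries (log2 ratio 0.21), and Eif4h was higher in replicate 2 (log2 ratio 1.52).

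Among the scaffold genes, Eif4g2 was the highest in both libraries. Eif4g2, whose protein resembles the C-terminal part of eIF4G and lacks the eIF4E site, had 574 nuclear TPM in replicate 2 (18964 counts) and 3638 in replicate 1 (17665 counts). No other translation factor gene had as many counts in replicate 1. The effective length of Eif4g2 was 4369 bases in replicate 2 and 2075 in replicate 1, and its TMM-scaled count ratio was smaller (log2 ratio -1.37). Its transcript Eif4g2-213 held 16152 of the 17665 counts in replicate 1 but 38.0% of the gene's abundance there. Eif4g1, the main scaffold, had 226 nuclear TPM in replicate 2 and 83.1 in replicate 1, and Eif4g3 had 26.9 in replicate 2 and 27.8 in replicate 1. The order Eif4g2, Eif4g1, Eif4g3 was the same in both libraries, while the lead of Eif4g2 over Eif4g1 was 2.54-fold in replicate 2 and 43.1-fold in replicate 1. The lead in replicate 1 includes the shorter effective length of Eif4g2 there.

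Eif4e, the cap-binding protein gene, had 90.9 nuclear TPM in replicate 2 and 303 in replicate 1. Its relatives were lower in both libraries: Eif4e3 had 50.5 nuclear TPM in replicate 2 and 110 in replicate 1, and Eif4e2, whose protein represses translation, had 43.7 in replicate 2 and 21.2 in replicate 1. Eif4enif1, for the transporter that takes eIF4E into the nucleus, had 40.0 nuclear TPM in replicate 2 and 98.8 in replicate 1. Eif4e1b, a form known from oocytes, had 0 counts in both libraries, which allows up to 1.52e-05% of the counts in replicate 2 and 1.32e-05% in replicate 1.

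The eIF4E-binding proteins sequester eIF4E until they are phosphorylated by mTORC1. Eif4ebp1 had 117 nuclear TPM in replicate 2 (702 counts) and 6.51 in replicate 1 (12 counts), and Eif4ebp2 had 50.1 in replicate 2 and 10.9 in replicate 1. Both were higher in replicate 2, with log2 ratios of 4.34 and 2.40. Eif4ebp3 had 5.32 nuclear TPM in replicate 2 and 12.2 in replicate 1. All 3 genes reached 1 TPM in replicate 2 and none did in replicate 1, where this limit equals 13.9 nuclear TPM, against 2.56 in replicate 2. Eif4ebp1 was the higher of the first pair in replicate 2 and the lower in replicate 1. The exact binomial interval of Eif4ebp1 over Eif4ebp2 in replicate 1, 0.282 to 1.14, included an even ratio. Their order there was therefore not settled.

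Of the factors that act at subunit joining, Eif5, which triggers GTP hydrolysis on eIF2, had 125 nuclear TPM in replicate 2 and 560 in replicate 1 (log2 ratio -2.13). Eif5b, the GTPase that joins the subunits, had 58.8 nuclear TPM in replicate 2 and 130.5 in replicate 1 (log2 ratio -1.40). Eif6, which binds the large subunit and keeps it apart, had 34.9 nuclear TPM in replicate 2 (345 counts) and 4.99 in replicate 1 (5 counts). Eif5 and Eif5b were lower and Eif6 higher in replicate 2 past 2-fold.

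The differences between the libraries followed the GC content of the transcripts. Across the 65 genes, Pearson's r between GC content and the log2 ratio was 0.86 and Spearman's rho was 0.87, and across 12463 nuclear protein-coding genes they were 0.86 and 0.90. Genes are not independent replicates, so these describe the 2 libraries. The 65 genes were also divided by GC content into 3 parts of nearly equal size. In the part with the lowest GC content, 38.8% to 47.1%, 19 of 22 were lower in replicate 2 and 0 were higher, with a median log2 ratio of -1.50. In the part with the highest GC content, 52.9% to 60.6%, 19 of 21 were higher and 0 were lower, with a median of 2.64. The middle part had 8 of 22 higher and 0 lower, with a median of 0.84. Over all genes of any GC content, 39.8% were higher and 26.5% lower. Shares of all genes within the same GC ranges were not taken, so these counts say nothing particular about translation factors. The G and C share at the last codon position gave r = 0.83 and coding length gave r = 0.05 over the 64 genes with a coding sequence.

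**Figure D4:**
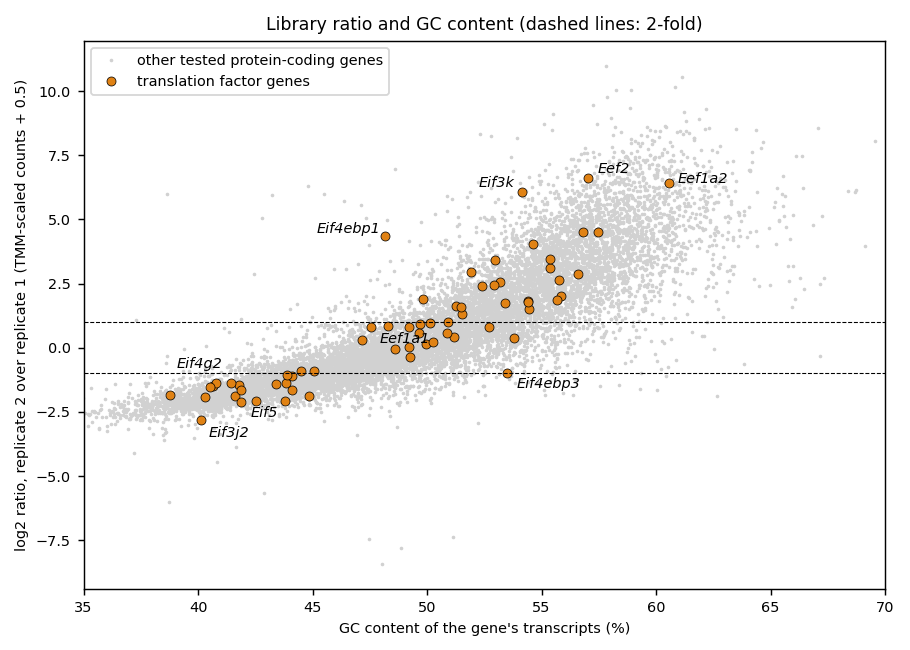
Log2 ratio of TMM-scaled counts, replicate 2 over replicate 1 (vertical axis), against the GC content of the gene's transcripts in percent (horizontal axis), for translation factor genes (orange) and other nuclear protein-coding genes (grey), with dashed lines at 2-fold. Translation factor genes lie along the band of all genes, and Eif3k, Eif4ebp1 and Eef2 lie above it, with log2 ratios of 6.05, 4.34 and 6.60.

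When the trend with GC content over all genes was removed, 15 of 65 translation factor genes (23.1%) were higher in replicate 2, against 14.5% of all genes, and 3 (4.62%) were lower, against 12.7%. The median was then 0.29, against 0 over all genes by construction. In this adjusted comparison Eef1a1 and Eef1a2 had log2 ratios of 1.22 and 1.49, Eef2 had 3.11 and Eef1g had 1.74. The eIF2 subunit genes came near even, with -0.18 for Eif2s2, 0.17 for Eif2s3x and 0.52 for Eif2s1. Eif4g2 had 0.32 and Eif4a2 had 0.05. The share of mitochondrial RNA moved with GC content between these same 2 libraries, and its part in the ratios was not tested.

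Related genes were also compared within a library, as ratios of TPM with 0.1 added. Of 21 such ratios, 17 had the same sign in both libraries. The 4 that did not were Eif4b over Eif4h (log2 ratio -0.19 in replicate 2 and 1.11 in replicate 1), Eif4ebp1 over Eif4ebp2 (1.22 in replicate 2 and -0.64 in replicate 1), Eif2ak1 over Eif2ak2 (1.36 in replicate 2 and -0.11 in replicate 1) and Eif2ak3 over Eif2ak4 (0.22 in replicate 2 and -0.84 in replicate 1). Among these 4, only Eif4b over Eif4h had exact binomial intervals that left out an even ratio in both libraries. They were 0.832 to 0.926 in replicate 2 and 1.92 to 2.49 in replicate 1. Each of the others had an interval that included an even ratio in 1 library, so its change of sign was not settled. The most even ratios between the libraries were Eif1ax over Eif1a, 1.41 in replicate 2 and 1.51 in replicate 1, and Eif2s3x over Eif2s1, 1.85 in replicate 2 and 1.52 in replicate 1. Eif2s3x has 1 near-identical copy, whose TPM was 7.25% of the sum of both in replicate 2 and 8.01% in replicate 1.

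**Figure D5:**
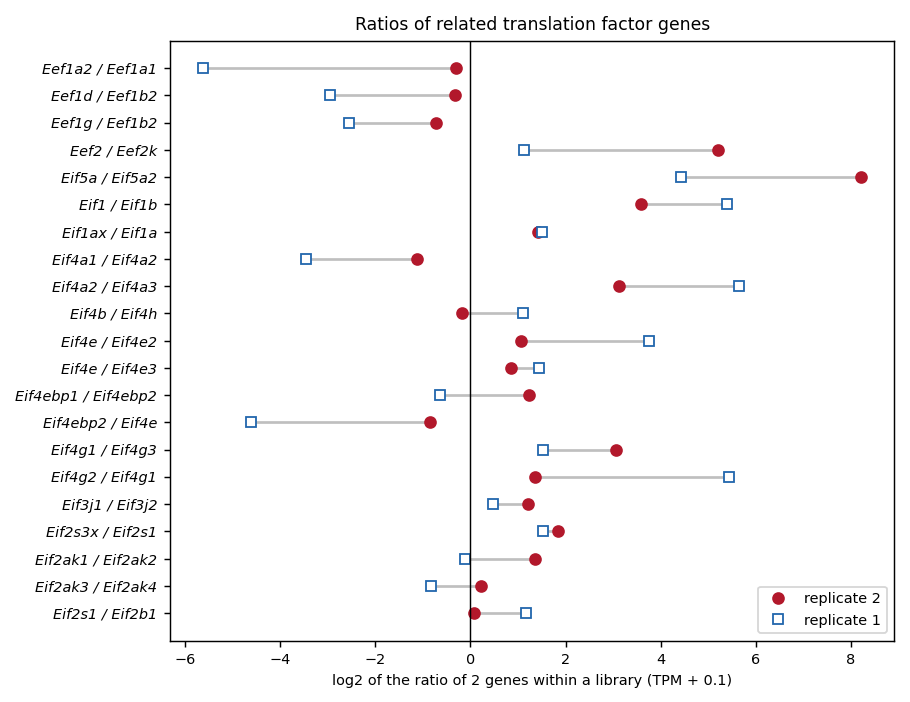
Log2 of the ratio of the first over the second gene of 21 pairs (horizontal axis, TPM with 0.1 added) in replicate 2 (filled circles) and replicate 1 (open squares). The ratio of Eef1a2 over Eef1a1 lies at -0.31 in replicate 2 and at -5.63 in replicate 1, and 4 pairs cross 0.

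The transcript tables showed the same leading transcript in both libraries for 10 of the 15 genes with the highest mean level, of which 4 have a single listed transcript. For Eif1, transcript Eif1-201 of 1322 bases carried 85.2% of the gene's abundance in replicate 2 and 17.6% in replicate 1, and Eif1-202 of 383 bases carried 13.5% in replicate 2 and 61.5% in replicate 1. For Eif3m, Eif3m-201 carried 98.4% in replicate 2 and 15.65% in replicate 1, and Eif3m-202 carried 0% in replicate 2 and 80.2% in replicate 1. The leading transcript of Eif2s2 was Eif2s2-201 in replicate 2, with 98.3%, and Eif2s2-205 in replicate 1, with 85.9%. Eif5a and Eef1b2 also had different leading transcripts. Eif4g2-213 led in both libraries, with 71.75% in replicate 2 and 38.0% in replicate 1, as did Eif4a2-203, with 65.6% in replicate 2 and 37.1% in replicate 1, and Eef1a1-201, with 86.3% in replicate 2 and 99.8% in replicate 1.

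Other genes of translation were read from a list of 53 by role, of which 52 were found. Of these, 34 had at least 1 TPM in both libraries, 22 were higher in replicate 2 and 15 lower, and their median log2 ratio was 0.13. Over all nuclear protein-coding genes, 27.9% reached 1 TPM in both libraries, 39.8% of those with enough counts were higher and 26.5% were lower, so the higher and lower counts lay near those of all genes. Termination and recycling factors were lower in replicate 2 in 6 of 8 cases, among them Etf1, the release factor that reads stop codons, with 79.8 nuclear TPM in replicate 2 and 275 in replicate 1, and Denr, with 58.7 in replicate 2 and 336 in replicate 1. Of the mTORC1 and MNK kinase genes, 8 of 10 were higher in replicate 2. These counts by role cover 8 and 10 genes and were not tested against other genes. With the GC trend removed, the kinase genes past 2-fold were Mlst8 (1.16) and Rps6kb2 (1.11). The termination and recycling genes past 2-fold were then Gspt2 (-1.27) and Pelo (-1.09). Mknk2, for a kinase of eIF4E, had 153 nuclear TPM in replicate 2 and 5.54 in replicate 1, while Rheb, the activator of mTORC1, had 123 in replicate 2 and 734.5 in replicate 1 and was lower.

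Genes that act on the factors or beside them gave mixed counts. The poly(A)-binding protein group had 2 of 6 higher and 2 of 6 lower in replicate 2, against 39.8% and 26.5% of all genes. Pabpc4 had 262 nuclear TPM in replicate 2 and 169 in replicate 1, and Paip2 had 259 in replicate 2 and 876 in replicate 1. Among helicases and repressors, Ddx3x had 174 nuclear TPM in replicate 2 and 776 in replicate 1, and Cyfip2 had 75.6 in replicate 2 and 72.6 in replicate 1. For the stress response that eIF2 kinases start, Atf4, its transcription factor, had 103.5 nuclear TPM in replicate 2 and 52.5 in replicate 1, and the phosphatase gene Ppp1cb had 183 in replicate 2 and 1145 in replicate 1. Of the enzymes that make diphthamide on eEF2 and hypusine on eIF5A, Dph3 had 80.5 nuclear TPM in replicate 2 and 71.8 in replicate 1, and Dohh had 57.3 in replicate 2 and 0.693 in replicate 1; its value in replicate 1 rests on 1 count. In mitochondria, where other factors serve, Tufm had 279 nuclear TPM in replicate 2 and 9.28 in replicate 1, and Gfm1 had 206 in replicate 2 and 225 in replicate 1.

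Some of these values rest on reads that could belong elsewhere. Of the 67 genes, 13 have 26 near-identical copies in the genome (at least 95% identity over at least 90% of the copy's length), and 10 of the copies had more than 3 counts in a library. The 4 copies of Eef1a1 carried 0.648% of the TPM of gene and copies in replicate 2 and 0.390% in replicate 1. Exons of 13 of the 67 genes overlap a gene on the opposite strand that had counts, among them Eif2b4 with Snx17 and Eif3m with Ccdc73.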

How the data were processed

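Poly(A) RNA of 1 mouse heart was measured in 2 libraries, technical replicates per the labels, with 1 deposited gene table and 1 transcript table each. Assembly mm10 and annotation M4 are named in the deposited file descriptions. The aligner, the program behind the estimates and its handling of strand are not stated in them or in the labels. Expected counts, estimated reads that need not be whole, were deposited per gene and transcript. The deposited TPM values are per effective length with the same sum in each library; the deposited FPKM values and posterior means served in alternatives only. The deposited transcript values include each transcript's part of its gene, in percent. The 43346 Ensembl genes held all counts, and 42462 matched a symbol, coordinates and sequence in GENCODE M21 (GRCm38).

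From these, nuclear TPM was computed without 15 mitochondrial mRNA and rRNA genes and 11 nuclear copies (blastn 2.17.0, at least 95% identity over 90% of the length). Counts were scaled by TMM in edgeR 4.0.16 (R 4.3.3), without any edgeR test; DESeq2 1.42.0 gave size factors for an alternative. Ratios between libraries need at least 20 counts over both. GC content is the mean of a gene's transcripts weighted by TPM, and its trend is the median ratio in 50 bins of equal gene number. The sequences are from M21, and some transcripts differ in length from those of M4. Calculations used Python 3.11.15, pandas 2.3.3 and scipy 1.17.1, and the ratio steps were tested on simulated data. With 1 animal there is no group comparison: values per library are given, and an exact binomial interval of a count ratio covers counting error. Named genes are the eEF1A pair, the 3 highest and the lowest of each group, both genes of each pair, the 5 largest ratios in each direction, genes with 3 counts or fewer in a library, the 2 highest pathway genes per role, and the leading transcripts of 15 genes. The genes, groups, pairs and lists were chosen with earlier results of these data known. Of 69 symbols listed, Eef1aknmt and Eef1akmt4 were not analysed here.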

Additional observations from a re-analysis of the deposited data

Results flagged for a closer look

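Beside the 67 protein-coding genes, named pseudogenes of translation factors were read from the same tables, and 2 carried more than the 3 counts that a count of 0 allows. Eif4a-ps4 had 22.08 expected counts in replicate 2 and 3.97 in replicate 1, which is 1.11 TPM in replicate 2 and 0.12 TPM in replicate 1. Eif1-ps1 had 3.04 expected counts in replicate 2 and 1 in replicate 1.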

How the results depend on the processing

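Low counts limit replicate 1 most, where Eif3k and Eif6 rest on 5 counts each. Its total was the higher (22775979 counts, against 19685806 in replicate 2) and its nuclear counts the lower (5028154, against 12654724). The source of the low counts of single genes was not tested. At a limit of 5 TPM in place of 1 TPM, 27 genes and not 48 reached it in both libraries; limits of 0.5 TPM, posterior means and nuclear TPM gave 54, 49 and 64, and single libraries gave 48 to 64. The summed level had a mean of 13723 nuclear TPM over both libraries (11255 without replicate 1, 16190 without replicate 2) and 2785 on the deposited TPM scale. The log2 ratio of Eef1a2 over Eef1a1, -2.97, stayed negative in its 8 alternatives: -0.37 with replicate 1 adjusted for GC content, -2.56 to -3.03 under other pseudocounts, and -0.31 to -5.63 in single libraries. The GC adjustment draws replicate 1 toward replicate 2 by construction. With the GC trend removed, 15 genes were higher and 3 lower in replicate 2, against 27 and 19 without removal. The higher ones were then 83.3% of the calls, against 58.7%. Over all genes the higher ones were 53.35% of the calls with the trend removed and 60.0% without. Other scalings, filters, pseudocounts and a fold of 1.5 gave 25 to 34 higher and 18 to 25 lower, and medians of 0.34 to 0.79. The higher genes were then 40.0% to 52.3%, against 27.2% to 45.3% of all genes. The lower ones were 29.5% to 38.5%, against 27.0% to 46.5%. The median over all genes was 0.26 with TMM, 0.16 with DESeq2 size factors and 0.02 with nuclear TPM. Adjusting replicate 1 for GC content turned the mean log2 ratio of Eif4b over Eif4h to -0.50, of Eif4ebp1 over Eif4ebp2 to -0.39 and of Eif2s1 over Eif2b1 to -0.38; of 60 alternatives of the 20 other pairs, 53 stayed within the spread of the libraries, 4 moved beyond it and these 3 reversed. The cause of these changes was not tested. Ratios between the libraries have no version with 1 library left out. No paired analysis was possible because there is 1 group, whose libraries are technical replicates of 1 animal.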

Other observations

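With the GC trend over all genes removed, the genes farthest from it were chosen after their values were seen. Eif4ebp1, whose protein holds eIF4E back from the cap-binding complex, was highest, with a log2 ratio of 4.61, replicate 2 over replicate 1. Its GC content, 48.2%, is that of an M21 transcript of 1997 bases, and its coding sequence held 62.1%. The effective length in the libraries was 793 bases in replicate 2 and 794 in replicate 1, so its adjusted ratio is uncertain. Eif3k, for a subunit at the edge of the eIF3 complex, had 4.10, and Eef2 had 3.11. All 3 genes were thinly covered in replicate 1, with 12, 5 and 83 counts. Eif3h, Eif3i, Eif3f and Eif3d, other subunits of eIF3, also stayed past 2-fold, with 1.02, 2.01, 1.58 and 1.61. The 3 genes lower past 2-fold were Eif4ebp3, with -2.61, Eif1b, with -1.38, and Eif3b, with -1.08. Eif4ebp3 had 22.38 counts in replicate 2 and 15.93 in replicate 1. The eIF4E-binding protein genes thus held both the highest and the lowest adjusted ratio of the 65 genes.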
